A study of Mus musculus with 14 samples.

Results

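The genes described here are 8 genes that neutrophils use late in their maturation, S100a8, S100a9, Lcn2, Ltf, Camp, Ngp, Mmp8 and Padi4. They were taken by name from every RNA count file of a mouse study of Dpy30, a shared subunit of the enzyme complexes that methylate histone H3 on lysine 4. All 8 were found among the 38926 gene entries of the LSK and MyePro files. All 8 were also found, by Ensembl ID, among the 39179 entries of the LT-HSC files. Knockout (KO) cells carried Mx1-Cre with Dpy30F/-, an allele that Cre can delete over a null allele, and control cells carried Mx1-Cre with Dpy30F/+, so the controls also had Cre and kept a wild-type allele. Mx1-Cre is driven by an interferon-responsive promoter and is not limited to blood cells, and pIpC was used to switch it on. CD45.2+ donor marrow had been transplanted together with C57Bl/6J CD45.1+ competitor marrow into irradiated CD45.1+ mice. From 7 weeks after transplant the mice of both genotypes received 4 injections of pIpC at 7.5 µg per g, and marrow was taken 2 weeks after the last, when a recipient still held competitor and host cells. Lineage-depleted donor cells were sorted as LT-HSC (long-term haematopoietic stem cells), LSK (Lin- Sca1+ Kit+ stem and progenitor cells) and MyePro (myeloid progenitors, a gate that the labels do not spell out). KO LT-HSC and control LT-HSC had 2 libraries each, from pools of 7 to 9 mice and amplified before sequencing, whereas KO LSK, control LSK, KO MyePro and control MyePro had 1 library each, from pools of 2 to 3 mice and not amplified.

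Neutrophil granules are filled in order as the cell matures: primary granules hold myeloperoxidase and serine proteases, and specific and gelatinase granules, made later, hold lactoferrin, cathelicidin and metalloproteinases. S100a8 and S100a9 code for the calcium-binding alarmins that pair into calprotectin, a zinc- and manganese-binding protein of the neutrophil cytosol that signals through Tlr4 once released. Lcn2 binds bacterial siderophores, Ltf (lactoferrin) binds iron, Camp is the mouse cathelicidin and Ngp is a granule protein related to the cathelicidins. Mmp8 is the neutrophil collagenase, and Padi4 converts arginine to citrulline on histones, a step in the release of neutrophil extracellular traps. In normal marrow these genes are used most strongly by maturing neutrophils, a stage that a lineage-depleted stem or progenitor sort is meant to leave out.

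The LSK and MyePro libraries held 6130320 (KO LSK), 14974432 (control LSK), 11531994 (KO MyePro) and 20820762 (control MyePro) counts in genes, and the LT-HSC libraries held 38060087 to 85499797. Values below are CPM, counts scaled to library size with the TMM method, and this scaling was set over the LSK and MyePro libraries together and over the LT-HSC libraries apart, so levels are not compared between these sets. Gene length was not available here, so levels are not compared between genes either. Dpy30 itself stood at 41.7 CPM in KO LSK against 78.0 CPM in control LSK, and at 51.6 CPM in KO MyePro against 116 CPM in control MyePro. In LT-HSC KO libraries 1 and 2 it stood at 14.1 and 4.67 CPM, against 12.9 and 8.43 CPM in control libraries 1 and 2. The library labelled KO 1 was thus not below its control, and every LT-HSC direction below rests on the labels. Counts over the whole gene do not tell the deleted exons from the rest, so these Dpy30 values do not measure deletion. Kit, which marks the LSK gate, was at 386 CPM in KO LSK and 491 CPM in control LSK, and Ly6a, which codes for Sca1, was at 61.1 CPM in KO LSK and 31.5 CPM in control LSK. The stem cell gene Hlf was at 291 and 241 CPM in KO LT-HSC, against 242 and 119 CPM in control LT-HSC. In LSK and MyePro no difference between genotypes has a replicate check: intervals are exact 95% intervals of the count ratio and cover counting error only, a log2 ratio carries a prior count of 2, and a bound takes 3 counts in a library at 0.

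S100a8 (ENSMUSG00000056054) lies on chromosome 3 at 90669071 to 90670034 on the plus strand, and S100a9 (ENSMUSG00000056071) lies 22.6 kb away at 90692630 to 90695721 on the minus strand, in the RefSeq annotation of GRCm38.p6. Camp, Ngp and Ltf share a stretch of chromosome 9, with 570 kb between Camp (109847377 to 109849456, minus strand) and Ngp (110419808 to 110423012, plus strand) and 596 kb between Ngp and Ltf (111019292 to 111042766, plus strand). Mmp8 is on chromosome 9 at 7558429 to 7568486, Lcn2 on chromosome 2 at 32384637 to 32387739 and Padi4 on chromosome 4 at 140745508 to 140774239. The 250 bases before the promoter table's start are printed, 5′ to 3′ on the gene's strand from RefSeq, for the 4 members with the most counts among those that were higher in KO progenitors and for Padi4, the member that was lower there. Capitals mark matches on either strand to a C/EBP, a PU.1 or a GATA motif, each spelled out after the sequences. The windows are S100a8 at chr3:90668821-90669070 (plus), S100a9 at chr3:90695722-90695971 (minus), Lcn2 at chr2:32387740-32387989 (minus), Ngp at chr9:110419558-110419807 (plus) and Padi4 at chr4:140774240-140774453 (minus). For Padi4 the table's start lies inside the gene's span, so the last 36 bases of its window are left out and 214 are printed; motifs were searched in all 250.
S100a8: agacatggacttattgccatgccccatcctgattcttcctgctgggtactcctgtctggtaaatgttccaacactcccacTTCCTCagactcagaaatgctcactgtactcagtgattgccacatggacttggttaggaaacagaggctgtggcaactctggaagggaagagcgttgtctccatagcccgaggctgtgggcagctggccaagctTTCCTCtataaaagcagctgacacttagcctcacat
S100a9: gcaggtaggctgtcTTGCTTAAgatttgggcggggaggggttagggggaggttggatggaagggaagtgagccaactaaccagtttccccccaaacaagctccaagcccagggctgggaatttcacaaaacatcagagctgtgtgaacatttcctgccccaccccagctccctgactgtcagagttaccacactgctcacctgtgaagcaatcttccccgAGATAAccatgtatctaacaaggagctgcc
Lcn2: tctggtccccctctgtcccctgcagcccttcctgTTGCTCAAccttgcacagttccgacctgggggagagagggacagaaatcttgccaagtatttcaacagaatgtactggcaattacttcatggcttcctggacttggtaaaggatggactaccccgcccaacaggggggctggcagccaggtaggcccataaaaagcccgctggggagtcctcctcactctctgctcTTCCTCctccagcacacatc
Ngp: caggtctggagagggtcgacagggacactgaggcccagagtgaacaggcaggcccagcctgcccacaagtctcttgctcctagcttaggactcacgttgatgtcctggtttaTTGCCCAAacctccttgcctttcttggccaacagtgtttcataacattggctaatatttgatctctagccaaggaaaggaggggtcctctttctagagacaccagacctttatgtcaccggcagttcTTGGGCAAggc
Padi4: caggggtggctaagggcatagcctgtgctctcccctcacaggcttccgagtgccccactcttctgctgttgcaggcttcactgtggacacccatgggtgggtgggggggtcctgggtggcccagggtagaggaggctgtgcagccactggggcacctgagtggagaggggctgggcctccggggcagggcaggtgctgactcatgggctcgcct

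The C/EBP letters, TTGCNNAA, were present before 5 of the 8 members (S100a9, Lcn2, Ltf, Ngp and Mmp8) and before 9.56% of 32851 RefSeq mouse promoters of the same length. The PU.1 letters, GAGGAA, were present before 4 of the 8 (S100a8, Lcn2, Ltf and Mmp8), against 23.3% of all promoters. The GATA letters, AGATAA, were present before 2 of the 8 (S100a9 and Ltf), against 9.99% of all promoters. Camp and Padi4 held none of these letters in this window. A match is a description of the sequence and not a site of binding.

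S100a8 and S100a9 were not detected in control LSK cells and were plainly present in KO LSK cells. S100a8 had 399 counts (59.4 CPM) in KO LSK against 0 counts in control LSK, where 3 counts would have been 0.204 CPM, so it was at least 291-fold higher in KO. S100a9 had 96 counts (14.3 CPM) in KO LSK against 0 counts in control LSK, at least 70.04-fold higher in KO. The control LSK library was the deeper of the pair, so its zeros were not met with fewer reads. In MyePro, S100a8 had 2585 counts (226 CPM) in KO against 183 counts (9.38 CPM) in control, a log2 ratio of 4.57 (interval 4.38 to 4.82). S100a9 had 731 counts (64.0 CPM) in KO MyePro against 14 counts (0.717 CPM) in control MyePro, a log2 ratio of 6.24 (5.72 to 7.36). Both subunits of calprotectin were thus higher in KO in each of these populations, and the KO MyePro library held the highest level of each among the LSK and MyePro libraries. In bulk libraries such as these, more cells that carry the RNA and more RNA per cell cannot be told apart.

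**Figure D1:**
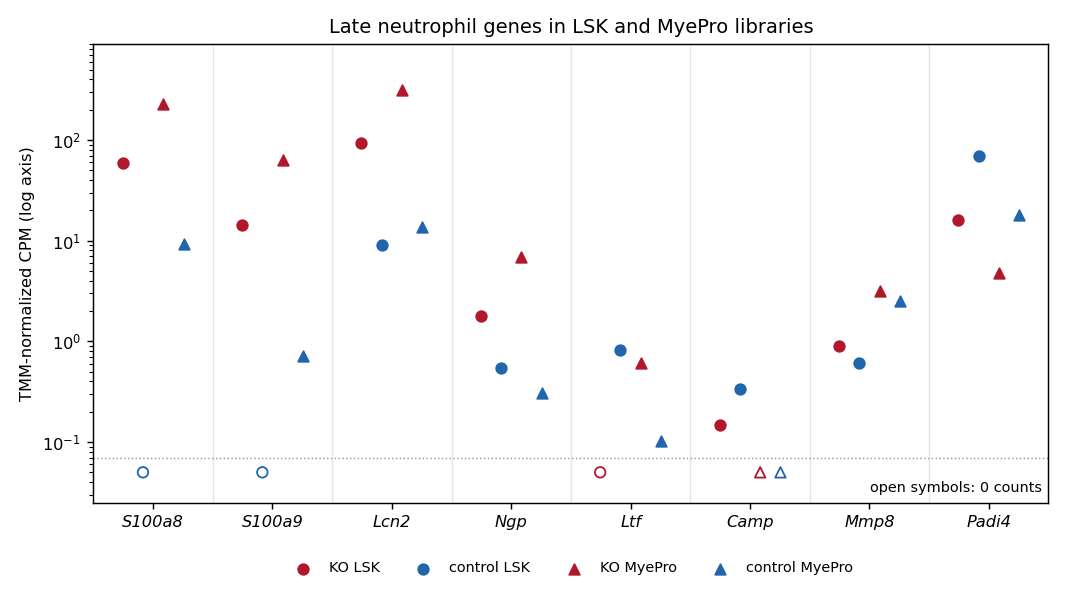
Level of each of the 8 genes (CPM, log scale) in the LSK and MyePro libraries, KO left of control, 1 library per point. S100a8, S100a9 and Lcn2 stand higher in KO in both populations, S100a8 at 59.4 CPM in KO LSK against 0 in control LSK, and Padi4 stands lower in KO in both.

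Lcn2 was present in every library and was higher in KO in both populations. It had 623 counts (92.7 CPM) in KO LSK against 133 counts (9.04 CPM) in control LSK, a log2 ratio of 3.33 (3.09 to 3.64). It had 3583 counts (314 CPM) in KO MyePro against 268 counts (13.7 CPM) in control MyePro, a log2 ratio of 4.50 (4.33 to 4.70). Ngp was also higher in KO, on far fewer counts. It had 12 counts (1.79 CPM) in KO LSK against 8 counts (0.544 CPM) in control LSK, a log2 ratio of 1.43 with an interval of 0.30 to 3.21. It had 78 counts (6.83 CPM) in KO MyePro against 6 counts (0.307 CPM) in control MyePro, a log2 ratio of 3.99 (3.29 to 5.96). The difference in Ngp between the MyePro libraries was thus a 22.2-fold ratio of scaled counts.

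The granule genes Ltf, Camp and Mmp8 were at the edge of detection in the LSK and MyePro libraries. Ltf had 0 counts in KO LSK against 12 counts (0.816 CPM) in control LSK, at least 1.83-fold lower in KO, and 7 counts (0.613 CPM) in KO MyePro against 2 counts (0.102 CPM) in control MyePro, a log2 ratio of 1.68 (0.19 to 5.88). Lactoferrin RNA was therefore lower in KO in LSK and higher in KO in MyePro, on at most 12 counts a library. Camp had 1 count in KO LSK against 5 counts in control LSK, and 0 counts in both MyePro libraries, so no ratio was formed in MyePro and in LSK the interval ran from -6.76 to 1.97. Mmp8 had 6 counts (0.893 CPM) in KO LSK against 9 counts (0.612 CPM) in control LSK and 36 counts (3.15 CPM) in KO MyePro against 49 counts (2.51 CPM) in control MyePro. Its log2 ratios, 0.43 (-1.23 to 2.20) in LSK and 0.31 (-0.33 to 0.98) in MyePro, had intervals that included 0.

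Padi4 went the other way from the alarmins. It had 107 counts (15.9 CPM) in KO LSK against 1021 counts (69.4 CPM) in control LSK, a log2 ratio of -2.11 (-2.43 to -1.84). It had 55 counts (4.81 CPM) in KO MyePro against 351 counts (18.0 CPM) in control MyePro, a log2 ratio of -1.87 (-2.34 to -1.49). The KO level was thus 22.9% of control in LSK and 26.8% of control in MyePro. In control LSK, Padi4 supplied 85.9% of all counts of the 8 genes, against 8.60% in KO LSK. Its control level was higher in LSK than in MyePro, so its place among late neutrophil genes describes its use in neutrophils and not its pattern in these libraries.

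**Figure D2:**
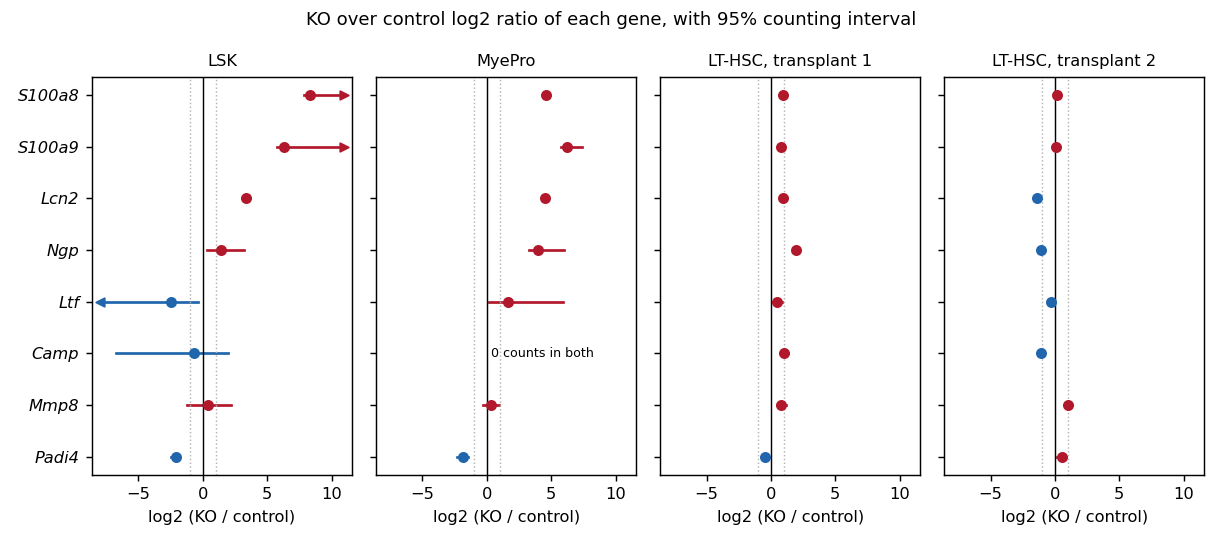
Log2 ratio of KO to control for each of the 8 genes in LSK, in MyePro and in each LT-HSC transplant, 1 library per genotype in each panel, with the exact 95% counting interval as a bar, an arrow where it is open, red above 0 and blue below, and dotted lines at 2-fold. S100a8, S100a9, Lcn2 and Ngp lie above 0 in both populations, Padi4 lies below 0 in both, and Ltf lies at -2.43 in LSK and 1.68 in MyePro. In LT-HSC, Lcn2, Ngp, Ltf and Camp lie above 0 in transplant 1 and below 0 in transplant 2.

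By the log2 ratio with its prior count, 4 of the 8 genes were more than 2-fold higher in KO LSK (S100a8, S100a9, Lcn2 and Ngp). By the same ratio 2 were more than 2-fold lower (Ltf and Padi4). Ltf, at 0 counts in KO LSK, passed 2-fold only by that ratio, as its bound was at least 1.83-fold lower. Among all genes with at least 10 counts over the LSK pair, which 7 of the members had (all but Camp), 9.54% were 2-fold higher in KO and 9.13% were 2-fold lower. Where the pair averaged 5 CPM or more, a level that 4 of the members reached, the shares were 4.76% higher and 5.66% lower. In MyePro, 5 of the 8 were more than 2-fold higher in KO (the same 4 and Ltf) and 1, Padi4, was lower. Ltf had under 10 counts over the MyePro pair, as did Camp. There the background was 20.9% higher and 9.51% lower at 10 counts, and 10.7% higher and 8.63% lower at 5 CPM. The median log2 ratio of the members was 0.93 in LSK, against -0.06 over all genes at 5 CPM and -0.046 at 10 counts. In MyePro it was 3.99 over the 7 members with any count, against -0.12 over all genes at 5 CPM and 0.0096 at 10 counts. The members were chosen with earlier results of these data known, so these counts and medians describe them and are not a test.

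The same libraries also show how the genes stand in MyePro relative to LSK within a genotype. In the controls 3 members were more than 2-fold higher in MyePro (S100a8, S100a9 and Mmp8) and 3 were lower (Ltf, Camp and Padi4). Among all genes at 5 CPM, a level that only 2 of the members (Lcn2 and Padi4) reached, 3.19% were higher and 6.89% lower. These shares were not matched to the lower levels of the other members. S100a8 was at least 45.99-fold higher in control MyePro than in control LSK, and S100a9 at least 3.52-fold higher. Padi4 in control MyePro was 25.9% of its level in control LSK, a log2 ratio of -1.94 (-2.13 to -1.77). In KO cells 6 members were more than 2-fold higher in MyePro. Only Camp (0 counts in KO MyePro and 1 count in KO LSK) and Padi4 were not among them. Padi4 was the 1 member that was more than 2-fold lower. Among all genes at 5 CPM, a level that 4 of the members reached, 3.22% were higher and 1.47% lower. S100a8, S100a9, Lcn2, Ngp and Mmp8 were 3.81-fold, 4.48-fold, 3.38-fold, 3.82-fold and 3.53-fold higher in KO MyePro than in KO LSK. Ltf passed 2-fold only by the log2 ratio with its prior count, as its bound was at least 1.37-fold higher and its interval included 0. Padi4 in KO MyePro was 30.2% of its level in KO LSK. The KO and control comparisons between populations use the libraries of the genotype comparisons above, so these are further views of the same values and not independent ones.

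In LT-HSC all 8 genes passed the minimum of 1 CPM in at least 2 of the libraries, and none differed between KO and control by edgeR's quasi-likelihood test (adjusted p = 0.999 for each). The same test called 2 of 12844 genes, 0.0156%, at an adjusted p under 0.05. At an unadjusted p under 0.05 edgeR called 0 of the 8 members, against 1.01% of all genes higher and 1.28% lower in KO, and DESeq2 and limma-voom also called 0 of the 8. The median log2 fold change of the members was -0.12, and that of all genes was 0.003. The standard errors of the members' log2 fold changes ran between 0.357 for S100a9 and 1.27 for Lcn2. Each was derived as the absolute log2 fold change over the square root of the test's F statistic. The fold changes and standard errors given here come from the fit without the transplant number as a block.

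S100a8 was at 36.1 and 75.8 CPM in KO LT-HSC, against 18.4 and 70.0 CPM in control LT-HSC (log2 fold change 0.34 ± 0.623 SE). S100a9 was at 44.4 and 50.9 CPM in KO LT-HSC, against 25.2 and 47.9 CPM in control LT-HSC (log2 fold change 0.38 ± 0.357 SE). For each subunit library 2 was the higher of its genotype, and the KO and control ranges overlapped. Lcn2 was at 8.43 and 42.5 CPM in KO LT-HSC, against 4.30 and 112 CPM in control LT-HSC (log2 fold change -1.19 ± 1.27 SE). Control library 2 had the highest Lcn2 and control library 1 the lowest. Ngp was at 34.8 and 31.8 CPM in KO LT-HSC, against 8.98 and 69.3 CPM in control LT-HSC (log2 fold change -0.24 ± 0.775 SE), with both KO values inside the control range. Camp was at 5.93 and 4.74 CPM in KO LT-HSC, against 2.89 and 9.96 CPM in control LT-HSC, and Ltf was at 3.33 and 4.30 CPM in KO LT-HSC, against 2.35 and 5.31 CPM in control LT-HSC. For Camp and Ltf as well, both KO values lay inside the control range. Mmp8 was at 4.64 and 6.25 CPM in KO LT-HSC, against 2.61 and 3.10 CPM in control LT-HSC (log2 fold change 0.93 ± 0.595 SE). It was the 1 member of 8 with both KO libraries above both controls, an order that 13.8% of all tested genes had, and no member had both KO libraries below both controls, an order that 13.9% had. Padi4 was at 15.0 and 3.73 CPM in KO LT-HSC, against 20.4 and 2.61 CPM in control LT-HSC (log2 fold change -0.30 ± 0.981 SE), with library 1 the higher in both genotypes.

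**Figure D3:**
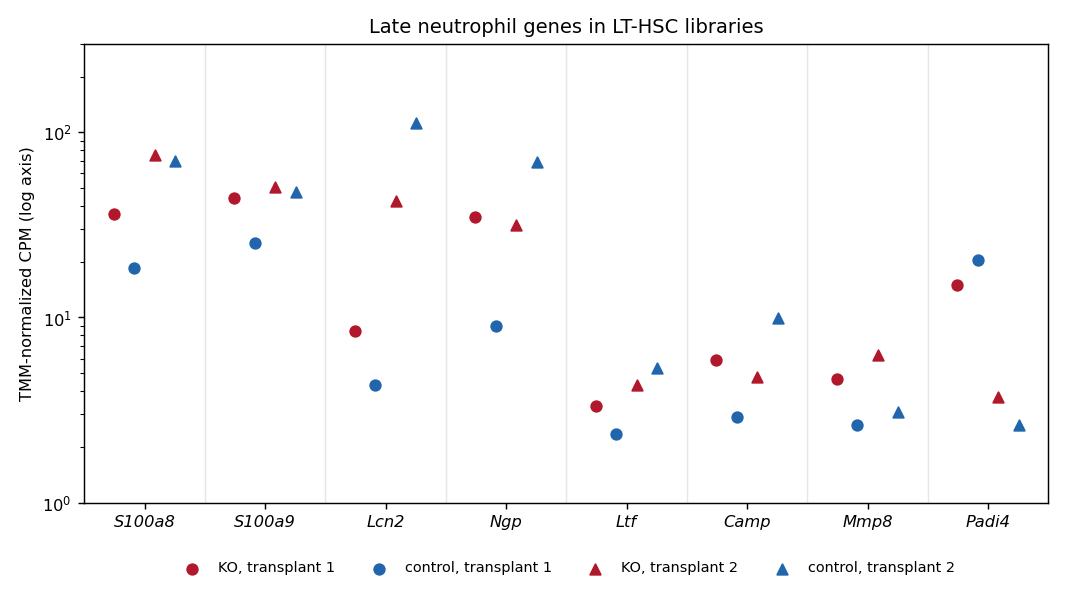
Level of each of the 8 genes (CPM, log scale) in the LT-HSC libraries, KO left of control, with transplant 1 and transplant 2 marked apart. The genotypes overlap for 7 of the 8 genes, and only Mmp8 has both KO libraries above both controls.

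The titles of the LT-HSC libraries carry a TP number, which is read here as the transplant number and is not spelled out. The KO to control ratio within a transplant differed between transplants for most members. In transplant 1 the log2 ratio was positive for 7 of the 8 genes, the highest being Ngp at 1.95 (1.80 to 2.11), and negative for Padi4 at -0.44 (-0.59 to -0.30). In transplant 2 it was -1.13 (-1.21 to -1.05) for Ngp, -1.40 (-1.47 to -1.33) for Lcn2 and -1.07 (-1.28 to -0.86) for Camp. Mmp8 had 0.82 (0.50 to 1.16) in transplant 1 and 1.01 (0.73 to 1.30) in transplant 2, S100a8 0.97 and 0.12, and S100a9 0.81 and 0.09. These within-transplant values set 1 library against 1 library and have no test. The share of all genes with a positive ratio in a transplant was not computed, so the shared sign in transplant 1 is not read as particular to these genes. Their intervals cover counting error only, with reads from amplified libraries taken as independent. Control library 2, in which Lcn2 was highest, also held 245 CPM over the 17 other late neutrophil genes listed, against 28.4 CPM in control library 1, 52.9 CPM in KO library 1 and 125 CPM in KO library 2; the part of this difference in the member values was not tested.

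The mix of the 8 genes also differed by library. In KO LSK, Lcn2 made up 50.1% and S100a8 32.1% of the counts of the 8 genes, against 11.2% and 0% in control LSK. In KO MyePro, Lcn2 made up 50.6% and S100a8 36.5%, against 30.7% and 21.0% in control MyePro, where Padi4 took 40.2% against 0.777% in KO MyePro. These shares are of counts and are not adjusted for length. S100a8 had 4.16 counts (3.32 to 5.25) for each S100a9 count in KO LSK and 3.54 (3.26 to 3.84) in KO MyePro, with intervals that overlap, against 13.1 (7.59 to 24.4) in control MyePro, which rests on 14 S100a9 counts. In LT-HSC the ratio was 0.813 and 1.49 in KO libraries 1 and 2, against 0.730 and 1.46 in control libraries 1 and 2. The intervals of KO and control overlapped within each transplant, and those of transplants 1 and 2 did not overlap. These intervals cover counting error only, in libraries that were amplified, so their overlap is not a test and the difference between transplants was not tested. The ratio of S100a8 to Lcn2 counts was 0.640 (0.563 to 0.727) in KO LSK, 0.721 (0.686 to 0.759) in KO MyePro and 0.683 (0.563 to 0.827) in control MyePro, while in control LSK it was 0 of 133 Lcn2 counts, which allows up to 0.0281.

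**Figure D4:**
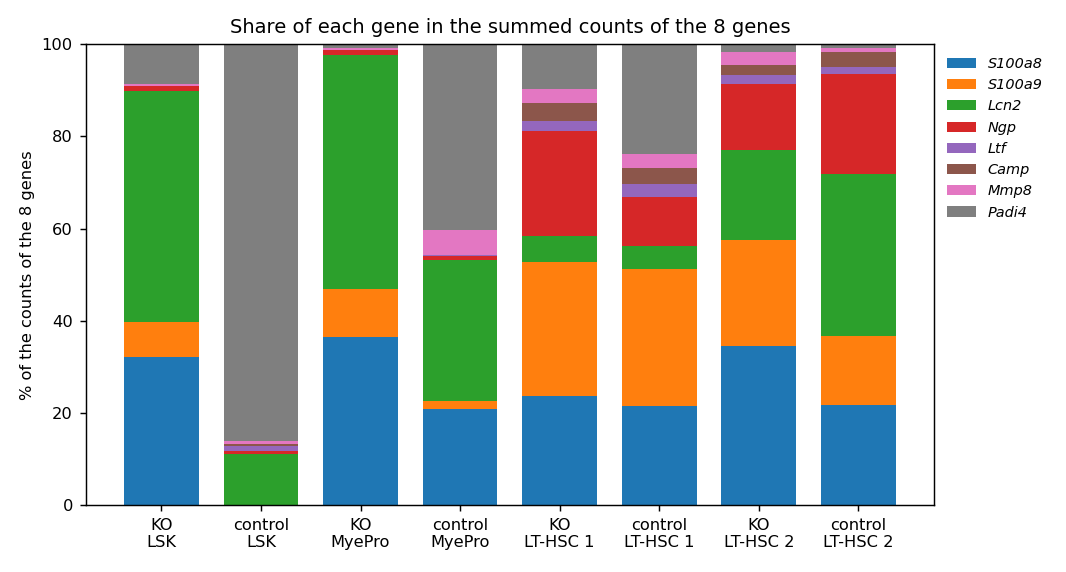
Share of each of the 8 genes in the counts of all 8 (percent, not adjusted for length) in each library. Lcn2 and S100a8 fill most of KO LSK and KO MyePro, and Padi4 fills 85.9% of control LSK.

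Other genes of the neutrophil programme were read from lists. These were chosen with earlier results of these data known, so their counts are descriptions and not a test. Among all genes at 5 CPM, 4.76% were 2-fold higher and 5.66% lower in KO LSK. In KO MyePro the shares were 10.7% higher and 8.63% lower. The same shares apply to the list counts further below. Of 17 other late neutrophil surface and secreted genes, 6 reached 5 CPM in LSK, and 5 of these were more than 2-fold higher in KO and 0 lower. In MyePro 7 reached it, with 5 higher and 0 lower. Cxcr2, the receptor for neutrophil-attracting chemokines, was at 132 CPM in KO LSK against 22.8 CPM in control LSK, and Mrgpra2a was at 13.8 CPM in KO LSK against 0.068 CPM in control LSK. Cd177, a neutrophil surface protein, was at 35.9 CPM in KO MyePro against 0.769 CPM in control MyePro. Ly6g, the usual surface marker of mature mouse neutrophils, had 0 counts in KO LSK, control LSK, KO MyePro and control MyePro, and Retnlg had 1, 0, 1 and 1 counts in these libraries. Of 16 other specific and gelatinase granule genes, 9 reached 5 CPM in LSK with 4 higher and 0 lower in KO, and 10 did in MyePro with 8 higher and 0 lower. Chil3 was at 26.3 CPM in KO MyePro against 1.23 CPM in control MyePro, while Mmp9, the gelatinase, had 0 and 4 counts in KO and control LSK and 5 and 4 counts in KO and control MyePro. Fcnb had 0 counts in KO MyePro against 45 counts in control MyePro. These lists thus held genes at or near 0 in KO beside genes that were far higher there, as did the 8 genes described here. Of the low genes, Ly6g, Retnlg and Mmp9 were at or near 0 in control as well.

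Of 8 primary granule genes, all of which reached 5 CPM, 1 was more than 2-fold higher and 1 lower in KO LSK, and 1 was higher and 2 lower in KO MyePro. Mpo, myeloperoxidase, was the gene lower in both, with a log2 ratio of -1.05 in LSK and -1.63 in MyePro, and Ms4a3 was the gene higher in both, at 2.27 and 1.42. Among 8 transcription factors of this lineage, Cebpa (1.19 in LSK and 1.28 in MyePro) and Cebpd (1.79 and 1.12) were higher in KO and Irf8 (-1.21 and -2.21), a factor of the monocyte branch, was lower. Cebpe, which is needed for specific granules, was at 8.03 CPM in KO LSK against 5.71 CPM in control LSK and at 13.2 CPM in KO MyePro against 17.6 CPM in control MyePro, both under 2-fold. Of the other 14 S100 genes, 6 reached 5 CPM in each population; S100a4 was higher in KO LSK (log2 ratio 2.32) and S100a4, S100a6, S100a13 and S100a11 were higher in KO MyePro (2.19, 2.19, 1.33 and 1.13). Padi2, from the same enzyme family as Padi4, was at 87.2 CPM in KO LSK against 38.5 CPM in control LSK (log2 ratio 1.18). It was at 80.5 CPM in KO MyePro against 41.1 CPM in control MyePro (0.97), which is under 2-fold. Of 8 receptors for the secreted members, Lrp1 (1.15 in LSK and 2.83 in MyePro) and Cd36 (1.01 and 3.07) were more than 2-fold higher in KO in both populations, and Tlr4 was higher in MyePro (1.40). Among 8 metalloproteinases and inhibitors, Mmp14 was lower in KO in both (-2.27 in LSK and -3.20 in MyePro), and Timp3 was lower in KO LSK (-1.49) and higher in KO MyePro (1.92), as was Timp2 (2.26).

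**Figure D5:**
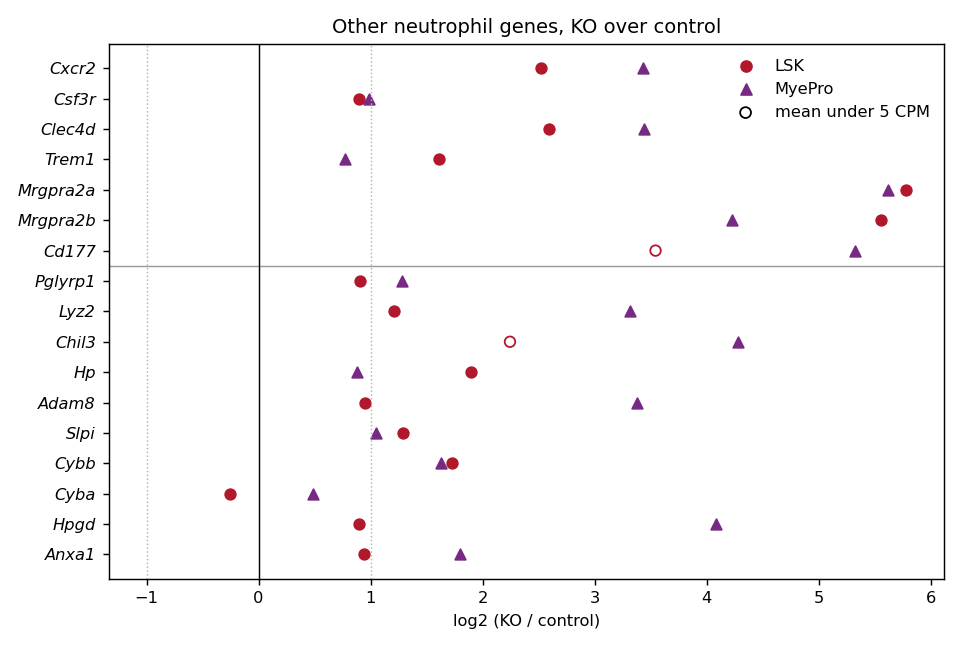
Log2 ratio of KO to control in LSK (circles) and MyePro (triangles) for other late neutrophil genes (upper block) and other specific and gelatinase granule genes (lower block) that averaged 5 CPM or more in at least 1 of the populations; open symbols averaged less, and dotted lines mark 2-fold. In the upper block 5 genes with filled symbols pass 2-fold higher in each population, and no gene shown is 2-fold lower.

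Markers of other cell types also differed between the same libraries, and their part in the member values was not tested. Their lists were chosen in the same way. Among all genes at 5 CPM, 4.76% were 2-fold higher and 5.66% lower in KO LSK, and 10.7% higher and 8.63% lower in KO MyePro. The 12 monocyte and macrophage genes summed to 433 CPM in KO LSK against 268 CPM in control LSK, with 6 of 10 tested more than 2-fold higher and 0 lower, and to 799 CPM in KO MyePro against 1010 CPM in control MyePro, with 7 of 11 higher and 2 lower. None of the 12 was at 0 in these libraries. The 12 T and NK cell genes summed to 578 CPM in KO LSK against 207 CPM in control LSK and to 645 CPM in KO MyePro against 212 CPM in control MyePro, with 3 of 3 tested higher in each, among them Gzmb. Cd3e, which defines T cells, had at most 1 count in each of these libraries. The 8 B cell genes summed to 3.57 CPM in KO LSK against 25.2 CPM in control LSK and to 7.62 CPM in KO MyePro against 21.1 CPM in control MyePro. Cd79b, the 1 gene of the 8 that reached 5 CPM, carried these sums, at 1.49 CPM in KO LSK against 24.6 CPM in control LSK and at 2.54 CPM in KO MyePro against 19.9 CPM in control MyePro. Vpreb1 and Igll1 had at most 28 counts a library. Igll1 ran the other way from Cd79b in MyePro, at 1.66 CPM in KO against 0.461 CPM in control. Vpreb1 was at 0.446 CPM in KO LSK, which is 3 counts, against 0.272 CPM in control LSK, and gives no direction there. The 10 erythroid genes summed to 62.8 CPM in KO LSK against 716 CPM in control LSK and to 384 CPM in KO MyePro against 3229 CPM in control MyePro, with 2 more than 2-fold higher and 6 lower of 8 tested in KO LSK, and 3 higher and 6 lower of 9 tested in KO MyePro. The genes higher in KO were globins, among them Hbb-bs at 36.4 CPM in KO MyePro against 2.41 CPM in control MyePro. The 7 megakaryocyte genes summed to 693 CPM in KO LSK against 685 CPM in control LSK and to 1470.1 CPM in KO MyePro against 176 CPM in control MyePro, with 1 higher and 1 lower in KO LSK and 6 higher and 0 lower in KO MyePro. The 7 mast cell, basophil and eosinophil genes summed to 679 CPM in KO LSK against 327 CPM in control LSK and to 1149 CPM in KO MyePro against 659 CPM in control MyePro. Of these genes 3 were higher and 3 lower in KO LSK (median log2 ratio -0.15) and 2 higher and 3 lower in KO MyePro (median -0.69), with Fcer1a higher (2.76 and 3.90) and Prg2 lower (-4.51 and -3.40) in both. The 7 stem cell genes summed to 524 CPM in KO LSK against 828 CPM in control LSK and to 271 CPM in KO MyePro against 453 CPM in control MyePro, with 0 higher and 4 lower in KO LSK and 2 higher and 2 lower in KO MyePro.

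The genes whose pattern over the LSK and MyePro libraries lay nearest to that of S100a8 and S100a9 were Mgam, Heph, Mrgpra2b, Mrgpra2a and Fcer1a, at Euclidean distances of 0.857, 1.25, 1.57, 1.76 and 1.87 on centred log2(CPM + 1), among 11473 candidates and over 4 libraries. Mgam was at 58.6 CPM in KO LSK against 1.84 CPM in control LSK and at 196 CPM in KO MyePro against 13.6 CPM in control MyePro. Heph was at 13.2 CPM in KO LSK against 0.136 CPM in control LSK and at 58.4 CPM in KO MyePro against 0.512 CPM in control MyePro. Of the members themselves, Lcn2 lay nearest to the S100a8 and S100a9 pattern at 1.53, followed by Ngp at 3.59, Mmp8 at 4.74, Ltf at 5.49 and Camp at 5.52, with Padi4 farthest at 7.74. To the mean pattern of all 8 genes the nearest outside genes were Alox5, Nrp2, Tmem163, Il20ra and Diras2, at 0.121, 0.150, 0.153, 0.177 and 0.189. These distances describe 4 libraries and carry no test.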

How the data were processed

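RNA libraries of sorted mouse marrow cells were used (8 of 14 samples); the 6 ChIP samples were not analysed here. The deposited files hold raw counts per gene, per the labels and the values. Per the submitters' processing notes, the programs included HTSeq 0.6.0, TopHat2 and CASAVA 1.8.4 and the build was mm10. Their roles, the annotation and any strand setting are not given here. HTSeq summary rows, ERCC spike-ins and a DPY30-SPKIG entry were kept out of library sizes. Reads counted to no feature were 2.40 to 26.0% and reads aligned to several places 23.9 to 37.9% of a file's total, and mitochondrial ribosomal RNA took 45.1 to 62.4% of LT-HSC counts.

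Counts were scaled with TMM in edgeR 4.0.16 (R 4.3.3). For LSK and MyePro, with 1 library a group, log2 ratios used a prior count of 2 and exact Clopper-Pearson 95% intervals, with no test. For LT-HSC, edgeR's quasi-likelihood test was fitted over 12844 genes that reached 1 CPM in 2 or more libraries, with Benjamini-Hochberg adjustment; DESeq2 1.42.0 and limma 3.58.1 were alternatives. Only the LT-HSC edgeR test and the coverage of the counting interval were tried on simulated counts, which held no transplant effect. KO and control LT-HSC libraries were paired by the TP number in their titles, read here as the transplant number. Deviations of same-numbered libraries correlated at 0.285 over 12844 genes, and no transplant-blocked fit called a member. LT-HSC p-values measure the spread between pools of mice. Motifs were searched in RefSeq promoters of GRCm38.p6. The 8 members and all lists were chosen with earlier results of these data known. Genes were named by rule: all members, up to 4 genes of each list with the largest ratio past 2-fold at a mean of at least 5 CPM, and the 5 nearest in pattern. Kit, Ly6a and Hlf in LSK or LT-HSC, and Ly6g, Retnlg, Mmp9, Fcnb, Cebpe and Cd3e, were named after their values were seen. Wfdc21, Chil3 and Adgre1 were matched by older symbols. Exon lengths and protein sequences were not used here.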

Additional observations from a re-analysis of the deposited data

Results flagged for a closer look

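For 5 of the 8 genes the KO to control ratio in LT-HSC ran opposite ways in the 2 transplants, each with 1 library a genotype. The difference between transplants was not tested, and the share of all genes that ran opposite ways was not computed. Lcn2 had a log2 ratio of 0.97 in transplant 1 and -1.40 in transplant 2. Camp had 1.02 in transplant 1 and -1.07 in transplant 2. Ngp had 1.95 in transplant 1 and -1.13 in transplant 2. Ltf had 0.49 in transplant 1 and -0.30 in transplant 2, and Padi4 had -0.44 and 0.51.

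Ltf also ran opposite ways in the progenitor populations, at -2.43 in LSK and 1.68 in MyePro, on 0 and 12 counts in KO and control LSK and 7 and 2 counts in KO and control MyePro; this difference was not tested either.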

How the results depend on the processing

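In LSK and MyePro 185 of 186 member log2 ratios under other scalings, prior counts and thinning had the sign of the reported value, and 10 lay outside its counting interval. The exception was Ngp in control MyePro against control LSK, at 0.35 with thinned counts against the reported -0.64, whose interval included 0. Counts of members past 2-fold stayed within 1.5 times of the reported count except at a fold of 4, where control MyePro against control LSK gave 3 in place of 6 and KO MyePro against KO LSK gave 1 in place of 7. With no CPM minimum, 18.7% of all genes passed 2-fold in LSK and 30.4% in MyePro. TMM over only the compared pair, chosen after seeing the data, left every count as reported.

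In LT-HSC the 2 genes past the threshold became 4 with library totals, 1 with ERCC factors, 6 with mitochondrial ribosomal RNA left out, 4 with no expression minimum, 14 with DESeq2, 1 with limma-voom, and 4 with the transplant number as a replicate block; leaving out a library gave 0 to 5 (0 without either control, 3 without KO 1 and 5 without KO 2). No member passed an adjusted p of 0.05 in any setting. The fold change of Lcn2, reported as -1.19 without the block, was -0.26 ± 0.491 SE with the block and -0.052 with limma-voom. For S100a8, reported as 0.34, it was 0.54 ± 0.278 SE with the block. The fold change of Ltf reversed to 0.12 with ERCC factors, 0.094 with the block and 0.13 with limma-voom. That of Ngp reversed to 0.40 with the block and 0.44 with limma-voom, and that of Padi4 to 0.025 with the block. Leaving out a library in turn gave ranges of -0.32 to 1.62 for S100a8, -2.79 to 2.58 for Lcn2, -0.47 to 0.71 for Ltf, -0.89 to 0.89 for Camp, -1.05 to 1.90 for Ngp and -1.63 to 1.85 for Padi4. The range was 0.002 to 0.93 for S100a9, whose low end was almost no difference, and 0.70 to 1.13 for Mmp8. The cause was not tested. With library totals the median log2 ratio of all genes was -0.35 in LT-HSC (0.003 with TMM), 0.09 in LSK (-0.06 with TMM) and -0.13 for KO MyePro against KO LSK (0.01 with TMM), and with mitochondrial ribosomal RNA left out it was -0.14 in LT-HSC. With 1 library a group in LSK and MyePro, spread between animals is unknown, and depth limits Ltf, Camp, Ngp and Mmp8 there.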
